A study of Mus musculus with 2 samples.

Results

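The 51 genes described here encode semaphorins, plexins, ephrins and Eph receptors, the signals and receptors through which cells attract or repel the processes of other cells. They were taken by gene symbol, as every row of the deposited tables named as a class 3 to 7 semaphorin, a plexin, an Eph receptor or an ephrin, which gave 51 of 22480 genes. There were 20 semaphorins, 9 plexins, 5 ephrin A, 3 ephrin B, 9 EphA and 5 EphB genes. Expression had been counted in single cells of mouse spinal cord as unique molecular identifiers (UMIs), 1 per captured RNA molecule, with a droplet kit that tags the 3′ end of transcripts. There were 2 libraries, 1 from cords 3 days post injury (3 dpi) and 1 from sham cords. Each pooled 5 male and 5 female C57BL/6 mice aged 8 weeks, and the cells came from a segment 8 mm long centred on the lesion level. No transgene or drug is named in the labels, and the kind of injury and what sham mice underwent are not given in the sources used here.

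Each group was 1 library, so no test was made, no p-value is given, and library and injury cannot be told apart. The 3 dpi library held 13594 barcodes with a median of 9117 UMIs, and the sham library 10138 barcodes with a median of 5522 UMIs. After filters and removal of called doublets, 12108 cells at 3 dpi and 9306 in sham remained, and 39 barcode sequences occurred in both libraries. Cells were grouped without the 51 genes and named by markers as classes, each called X-like. Among the named classes, microglia-like (2622 cells at 3 dpi and 2179 in sham), oligodendrocyte-like (1396 and 4283), endothelial-like (390 and 1405) and oligodendrocyte precursor-like cells (858 and 279) each reached 50 cells in both libraries. Monocyte/macrophage-like (3311 and 8), neutrophil-like (1460 and 15), fibroblast-like (663 and 19), T or NK cell-like (78 and 10) and B cell-like cells (89 and 3) were described at 3 dpi only. Pericyte- or smooth muscle-like cells (11 and 526) were described in sham only. Neuron-like cells were too few (13 and 21), and no cluster was named astrocyte-like, so the families were not described in these cells. Levels are UMIs per 1000000 UMIs of a class in 1 library (CPM), with 95% intervals in brackets that cover counting error only and leave out the spread between cells, mice and libraries. A gene counted as measured at 20 CPM or more. Levels of a gene are compared between classes and libraries, not with levels of other genes.

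Semaphorins are secreted or membrane-bound guidance cues, and plexins are their receptors. Secreted class 3 semaphorins mostly bind through the co-receptors neuropilin 1 and neuropilin 2, while membrane-bound semaphorins can bind plexins directly. Ephrins sit in the membrane of 1 cell and bind Eph receptor tyrosine kinases on another, and both sides can signal. In the adult cord these families are known for limiting axon growth, for steering oligodendrocyte precursors and for shaping arteries and veins.

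All 51 genes had at least 1 UMI in each library, and 32 were measured in at least 1 class with 50 cells in each of the 2 libraries. At 3 dpi, endothelial-like cells were the highest class of 10 of these 32 genes, oligodendrocyte-like cells of 6, fibroblast-like and oligodendrocyte precursor-like cells of 5 each, and neutrophil-like cells of 3. Microglia-, monocyte/macrophage- and B cell-like cells were highest for 1 each. In sham, endothelial-like cells were highest for 12 of 32 genes, precursor-like cells for 7, oligodendrocyte-like and pericyte-like cells for 5 each and microglia-like cells for 3. Over all measured genes the endothelial-like share was 8.33% of 10186 genes at 3 dpi and 16.6% of 10136 genes in sham, against 31.2% and 37.5% of the measured guidance genes. Precursor-like cells were highest for 15.6% of the guidance genes at 3 dpi and 21.9% in sham, below 22.3% and 33.5% of all measured genes. Oligodendrocyte-like cells stood near the share of all genes (18.8% against 17.5% at 3 dpi, 15.6% against 16.9% in sham). At 3 dpi the shares were 15.6% against 9.47% for fibroblast-like, 9.38% against 12.9% for neutrophil-like and 3.12% against 3.59% for microglia-like cells. They were 3.12% against 3.58% for monocyte/macrophage-like and 3.12% against 10.4% for B cell-like cells. In sham they were 9.38% against 14.1% for microglia-like and 15.6% against 18.9% for pericyte-like cells. The interval of the ratio to the second class included 1 for Sema4c, Sema5b, Plxnc1 and Epha3 at 3 dpi and for Sema4c, Plxna1 and Efna2 in sham, so the highest class of these genes was not settled even for counting error. A single class reached 20 CPM for 20 of the 32 genes at 3 dpi, with 9 classes ranked, and for 16 of 32 in sham, with 5. The same count over all genes was not made, so it is not read as particular to the guidance genes. Of the remaining genes, Epha6 and Epha8, both Eph receptors, were near 0: Epha6 had 2 UMIs at 3 dpi, in neuron-like cells, and 1 in sham, in an oligodendrocyte-like cell, among the named classes.

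**Figure D1:**
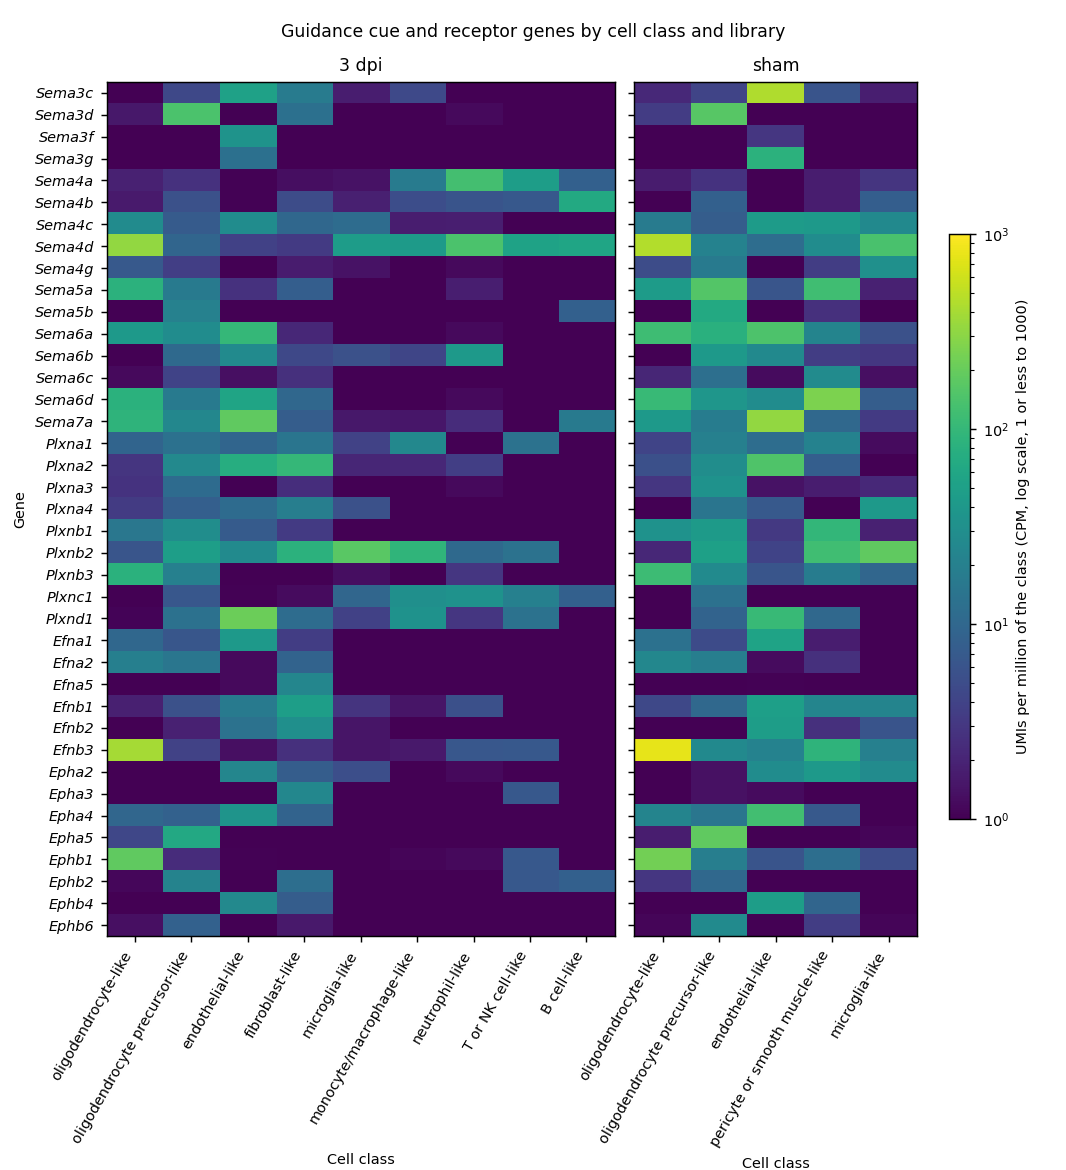
Level of the guidance genes that were measured in at least 1 class, for 3 dpi (left) and sham (right). Rows are genes, columns are cell classes with at least 50 cells in that library, and colour gives CPM on a log scale from 1 to 1000. Efnb3, Sema4d and Ephb1 are brightest in oligodendrocyte-like cells in both panels, and Sema3d and Epha5 in oligodendrocyte precursor-like cells.

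Oligodendrocyte-like cells, which form myelin, were the highest class for Efnb3, Ephb1 and Sema4d in both libraries. Efnb3, the ephrin B3 of myelin that repels axons bearing its receptors, stood at 394.1 CPM [384.4 to 404.0] at 3 dpi and 769.5 CPM [761.1 to 777.9] in sham. Ephb1, a receptor for B ephrins, stood at 184.9 CPM [178.2 to 191.7] at 3 dpi and 229.8 CPM [225.3 to 234.5] in sham. Sema4d, a membrane-bound semaphorin that binds plexin B1 and B2, stood at 322.1 CPM [313.3 to 331.1] at 3 dpi and 445.1 CPM [438.8 to 451.6] in sham. The library with the injury was the lower of the 2 for each of these 3 genes, by less than 2-fold where 10 CPM was added to both (log2 ratios -0.95, -0.30 and -0.45). An Efnb3 UMI was seen in 94.7% of oligodendrocyte-like cells at 3 dpi, against 97.3% in sham, and in 36.9% and 53.2% after each cell had been thinned to 1000 UMIs. In microglia-like cells, taken as a class that should lack it, the thinned shares were 0.0385% and 1.91%. Plxnb3, the plexin of the oligodendrocyte lineage that binds semaphorin 5A, had 82.5 CPM at 3 dpi and 115.2 CPM in sham.

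Oligodendrocyte-like cells also carried the semaphorins Sema6d (83.4 CPM at 3 dpi and 106.2 CPM in sham), Sema5a (83.9 and 44.9 CPM) and Sema7a (88.9 and 40.4 CPM). Semaphorin 7A is held in the membrane by a lipid anchor, and its log2 ratio of 0.97 was just inside the 2-fold limit. The 2-fold limit was passed downward at 3 dpi by 1 of 12 measured members (8.33%) and upward by 0, where 3.67% of all 6241 measured genes were lower, 4.63% higher and 8.3% apart in either direction. The lower gene was Sema6a, a transmembrane semaphorin that binds plexin A2 and A4, with 40.9 CPM [37.8 to 44.2] at 3 dpi against 117.6 CPM [114.3 to 120.9] in sham, 2.88-fold lower [2.65 to 3.13]. A gene counted as measured through either library, so a member listed only through its high library had to differ. Of the 51 genes, 9 reached 20 CPM in oligodendrocyte-like cells at 3 dpi, against 11 in sham (17.6% and 21.6%, beside 25.3% and 25.9% of all genes). The median log2 ratio of the 12 measured members was -0.38, beside -0.045 over all measured genes. With 1 CPM added in place of 10, 4 members rather than 1 were at least 2-fold apart.

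The class was held by different clusters in each library, and the members differed among them. At 3 dpi, a cluster led by Klk8 and S100b (712 cells) had 13.4 CPM of Sema6a and one led by Cldn11 and Nfasc (656 cells) had 90.2 CPM. In sham, Sema6a stood at 207.7 CPM in the cluster led by Ptgds and Opalin, at 126.8 CPM in that led by Stmn4 and Mobp and at 42.6 CPM in that led by Klk6 and Hopx. The range within each library was therefore wider than the gap between the libraries. Sema5a, a semaphorin that can attract or repel, ran the other way, with 96.4 and 61.7 CPM in the 3 dpi clusters and 4.60, 23.7 and 90.4 CPM in the sham clusters in the same order. Sema6d and Epha4 had the same order as Sema6a at 3 dpi and were highest in the Ptgds cluster in sham. Among these clusters Efnb3 varied less, from 373.2 to 430.5 CPM at 3 dpi and from 724.7 to 826.7 CPM in sham. Over these clusters the libraries did not overlap in Efnb3. A further, shallow cluster of the class, with 13 cells at 3 dpi and 144 in sham, is not given here. How far the mix of clusters set the class level of Sema6a was not tested.

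**Figure D2:**
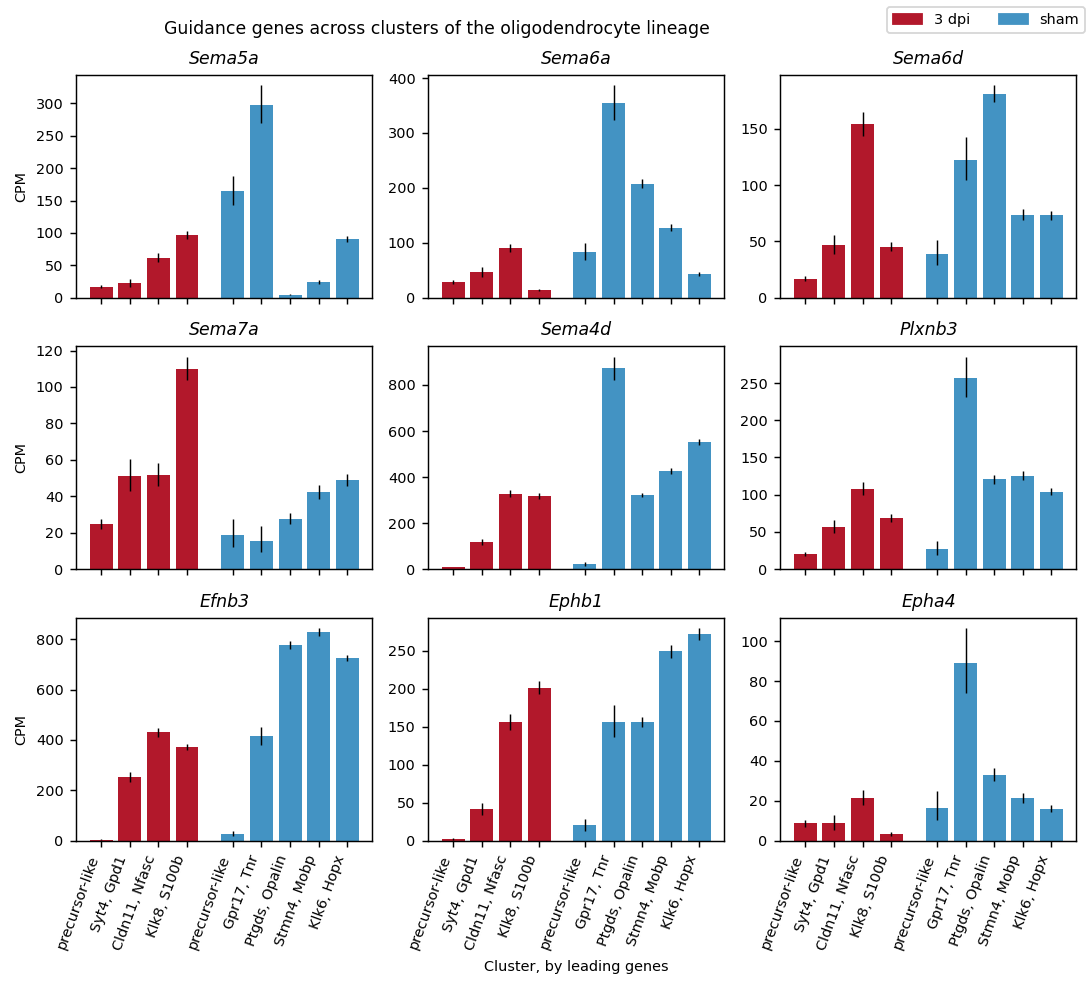
Levels (CPM, linear axes from 0) of 9 guidance genes in clusters of the oligodendrocyte lineage, 3 dpi in red to the left and sham in blue to the right. Bars are pooled UMIs of 1 cluster in 1 library and lines are 95% Poisson intervals; clusters are named by leading genes. Sema5a, Sema6a, Sema4d, Plxnb3 and Epha4 are highest in the sham cluster led by Gpr17 and Tnr, and Sema6a and Sema5a run in opposite order over the mature sham clusters.

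A small cluster led by Gpr17 and Tnr, genes of precursors committed to become oligodendrocytes, held 25 cells at 3 dpi and 95 in sham. Oligodendrocyte was its best class by markers, but its 10 leading genes held 0 oligodendrocyte markers and 2 of another class, so it stayed unnamed. All members together made up 3014 CPM [2923 to 3108] of its UMIs in sham, against 2034 CPM [2020 to 2048] in sham oligodendrocyte-like cells and 1260 CPM [1203 to 1319] in sham precursor-like cells. Sema4d stood there at 871.9 CPM [823.1 to 922.8], Sema6a at 354.1 CPM [323.3 to 387.1] and Sema5a at 297.9 CPM [269.7 to 328.3]. For each of these 3 genes that was above every named class of the sham library with at least 50 cells. Plxnb3 (257.0 CPM) and Sema4f (45.3 CPM) were above those classes too, while Epha4 (89.1 CPM) was below its level in endothelial-like cells (123.0 CPM). The cluster was singled out after its values had been seen. A cluster led by Syt4 and Gpd1, with 378 cells at 3 dpi and 9 in sham, carried oligodendrocyte markers and stayed unnamed, and had 251.4 CPM of Efnb3 and 118.5 CPM of Sema4d at 3 dpi.

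Oligodendrocyte precursor-like cells, the dividing reserve of the lineage, were the highest class for Sema3d and Epha5 in both libraries. Sema3d, a secreted class 3 semaphorin, stood at 140.9 CPM [134.0 to 148.0] at 3 dpi and 165.1 CPM [144.8 to 187.4] in sham, a log2 ratio of -0.21. Epha5, a receptor for A ephrins, stood at 64.6 CPM [59.9 to 69.5] at 3 dpi against 184.4 CPM [162.9 to 207.9] in sham, 2.86-fold lower [2.47 to 3.29]. Sema5a showed the widest gap of the class, with 17.0 CPM [14.7 to 19.6] at 3 dpi against 159.5 CPM [139.6 to 181.5] in sham, 9.39-fold lower [7.71 to 11.4]. Different clusters held the class here too, one with 852 cells at 3 dpi and 18 in sham and one with 6 and 261. A Sema5a UMI was seen in 16.4% of precursor-like cells at 3 dpi and 54.5% in sham, although the median cell held 11589 UMIs at 3 dpi and 5146 in sham. After thinning to 1000 UMIs these shares were 2.34% and 15.7%, against 0% and 0.286% in microglia-like cells. By CPM, the highest named class for Sema5a was thus oligodendrocyte-like at 3 dpi and precursor-like in sham. Oligodendrocyte-like cells held more Sema5a UMIs than precursor-like cells in both libraries (1325 against 189 at 3 dpi and 1891 against 231 in sham).

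In precursor-like cells, 7 of 18 measured members (38.9%) lay at least 2-fold below sham at 3 dpi and 0 above it, where 13.6% of all 8198 measured genes were lower, 7.31% higher and 21.0% apart. Beside Sema5a and Epha5 these were the semaphorins Sema5b (21.0 CPM at 3 dpi and 67.0 CPM in sham), Sema6a (28.8 and 80.1 CPM) and Sema6b (10.6 and 40.8 CPM), and the plexin Plxna3 (11.2 and 33.8 CPM). The seventh was Efnb3 (3.96 and 26.2 CPM), at 3.41% of the sham level in oligodendrocyte-like cells, where the myelin gene Mag stood in precursor-like cells at 2.95%. Efnb3 is therefore not read as expressed there. Of the 7, Sema5a, Sema6b, Plxna3 and Efnb3 were measured through sham only, so the filter favoured a lower call for them. Receptors varied: beside the lower Epha5 and Plxna3, Ephb6 lay just inside the limit, with 8.63 CPM at 3 dpi and 26.9 CPM in sham (log2 ratio -0.99). Plxnb2, Plxna2, Plxnb1, Plxnb3 and Plxna1 were nearer to 0, with log2 ratios of -0.07, -0.15, -0.42, -0.32 and -0.38. Ephb2, a receptor for B ephrins, was the measured member furthest toward 3 dpi, with 22.2 CPM at 3 dpi and 10.4 CPM in sham (15 UMIs in sham, log2 ratio 0.66). Of the 51 genes, 10 reached 20 CPM there at 3 dpi and 16 in sham (19.6% and 31.4%, beside 29.3% and 34.0% of all genes), and the median log2 ratio of the 18 was -0.75, beside -0.26 over all measured genes.

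Of the 6 named precursor genes, Sema5a stayed at least 2-fold lower in every setting tried, and Sema5b, Sema6a, Sema6b, Plxna3 and Epha5 each came within 2-fold in at least 1. With the Gpr17 cluster counted as precursor-like, the log2 ratio of Epha5 (-1.38) was -0.57, that of Sema5b (-1.31) was -0.81 and that of Sema6a (-1.22) was -2.50. Thinned to 1000 UMIs, Sema6a had a log2 ratio of -0.43, Sema6b -0.93 (against -1.30) and Plxna3 -0.71 (against -1.05). Oligodendrocyte markers, 12 genes, summed to 767.8 CPM in precursor-like cells at 3 dpi and 2819 CPM in sham, 1.83% and 4.11% of their level in oligodendrocyte-like cells, with none at 0 in either library. The part of these markers in the results was not tested. Sema5a was 9.39-fold lower at 3 dpi in all cells, and its log2 ratio was -3.11 in male-derived and -2.23 in female-derived cells, where cells were assigned by sex-linked UMIs.

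Endothelial-like cells, which line blood vessels, were the highest class for the class 3 semaphorins Sema3c in both libraries, Sema3f at 3 dpi and Sema3g in sham. Sema3c, secreted and known for guiding vascular and neural crest cells, stood at 52.3 CPM [47.0 to 58.0] at 3 dpi against 433.5 CPM [416.6 to 450.8] in sham, 8.29-fold lower [7.41 to 9.29]. Sema3g, which is known from arterial endothelium, stood at 12.7 CPM [10.2 to 15.7] at 3 dpi against 83.8 CPM [76.5 to 91.6] in sham, 6.58-fold lower [5.22 to 8.38]. Sema3f, a ligand of neuropilin 2, went the other way, with 35.0 CPM [30.6 to 39.7] at 3 dpi against 2.95 CPM [1.72 to 4.72] in sham, 11.9-fold higher [7.25 to 20.7]. The sham level of Sema3f rested on 17 UMIs and the 3 dpi level on 236. Different clusters held the class, one with 363 cells at 3 dpi and 2 in sham and one with 27 and 1403, so cluster and library cannot be told apart. A Sema3c UMI was seen in 44.6% of endothelial-like cells at 3 dpi and 71.0% in sham, with median depths of 13384.5 and 3218 UMIs. Thinned to 1000 UMIs the Sema3c shares were 6.58% and 33.8%, against 0.193% and 0.286% in microglia-like cells. Sema3f UMIs were seen in 31.0% of endothelial-like cells at 3 dpi and 0.996% in sham, against 0.153% and 0.0918% of microglia-like cells. These Sema3f shares are without thinning, and the greater depth of the 3 dpi cells favours the 3 dpi share.

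Efnb1 and Efnb2, ephrin B genes, were both at least 2-fold lower at 3 dpi in endothelial-like cells. Efnb2, the ephrin that marks arterial endothelium, stood at 13.5 CPM [10.9 to 16.6] at 3 dpi against 47.0 CPM [41.6 to 53.0] in sham, 3.49-fold lower [2.74 to 4.47]. Its venous receptor gene Ephb4 had 25.9 CPM at 3 dpi and 46.3 CPM in sham and lay within 2-fold (log2 ratio -0.65). Efnb1 stood at 16.7 CPM at 3 dpi against 48.8 CPM in sham, and Epha4, a receptor that binds both ephrin classes, at 35.3 CPM [30.92 to 40.03] against 123.0 CPM [114.1 to 132.4]. Efnb3 (1.33 and 21.3 CPM) also passed the limit, but in sham it was at 2.77% of its oligodendrocyte-like level, where Mag stood at 3.21%, and it is not read as expressed there. Efna1 (40.6 and 55.2 CPM) and its receptor gene Epha2 (23.9 and 28.8 CPM) were within 2-fold.

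Among receptors of endothelial-like cells, Plxnd1, the plexin of developing vessels, stood at 213.3 CPM [202.4 to 224.6] at 3 dpi and 105.7 CPM [97.5 to 114.4] in sham. Its ratio was 2.02 [1.84 to 2.22] and its log2 ratio with 10 CPM added, 0.95, was just inside the limit. Plxna2 (74.7 CPM at 3 dpi and 150.1 CPM in sham, log2 ratio -0.92) was just inside the limit on the other side. Of the co-receptors, which are not members, Nrp1 had 74.7 CPM [68.3 to 81.5] at 3 dpi against 365.3 CPM [349.8 to 381.2] in sham, 4.89-fold lower [4.44 to 5.40]. Nrp2 had 100.9 CPM at 3 dpi and 51.0 CPM in sham. In endothelial-like cells, Sema3c and Nrp1 were thus both lower at 3 dpi, while Sema3f was higher and Nrp2 stood at 1.98 times its sham level [1.72 to 2.28]. Sema3c and Sema3g, which are paired with Nrp2 too, were 8.29-fold and 6.58-fold lower. The measured ligands of Nrp2 therefore did not move together.

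In endothelial-like cells, 6 of 18 measured members lay at least 2-fold below sham at 3 dpi and 2 above it (44.4% in all), where 13.5% of all 7035 measured genes were lower, 8.26% higher and 21.7% apart. Of those called, Sema3g, Efnb1, Efnb2 and Efnb3 were measured through sham only, and Sema3f and Plxnb2 through 3 dpi only. The filter therefore favoured their calls. Of the 51 genes, 14 reached 20 CPM there at 3 dpi and 16 in sham (27.5% and 31.4%, beside 25.6% and 28.7% of all genes), and the median log2 ratio of the 18 was -0.58, beside -0.26 over all measured genes. The second higher gene was Plxnb2, a receptor for class 4 semaphorins, with 27.3 CPM [23.5 to 31.5] at 3 dpi against 3.99 CPM [2.53 to 5.99] in sham. Plxnb2 had its highest level in microglia-like cells, and 16.2% of that level was reached in endothelial-like cells at 3 dpi. Microglia markers, 12 genes, summed to 146.2 CPM in endothelial-like cells at 3 dpi, against 145.1 CPM in sham, and 12 monocyte/macrophage markers to 1542 and 764.6 CPM. None of either list was at 0 at 3 dpi, and 4 monocyte/macrophage markers were at 0 in sham. Plxnb2 stood at 92.96 CPM in monocyte/macrophage-like cells at 3 dpi, and the part of these cells in the endothelial value was not tested. An unnamed cluster of 321 sham cells with endothelial and pericyte markers had 52.5 CPM of Plxnb2, and with it counted as endothelial-like the log2 ratio of 1.41 was 0.29. Efnb1 lay within 2-fold under median-of-ratios scaling (log2 ratio -0.91, against -1.14), and Epha4 after thinning to 1000 UMIs (log2 ratio -0.89, against -1.56).

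Promoters are shown for Sema3c, Sema3g and Efnb2, the secreted or arterial cues among the members that were lower in endothelial-like cells. The 250 bases before the RefSeq transcription start are given 5′ to 3′ on the gene's strand (GRCm38.p6), and capitals mark the GC box GGGCGG, read on either strand, which the factor Sp1 is known to bind.
Sema3c (chr5:17574566-17574815, plus strand): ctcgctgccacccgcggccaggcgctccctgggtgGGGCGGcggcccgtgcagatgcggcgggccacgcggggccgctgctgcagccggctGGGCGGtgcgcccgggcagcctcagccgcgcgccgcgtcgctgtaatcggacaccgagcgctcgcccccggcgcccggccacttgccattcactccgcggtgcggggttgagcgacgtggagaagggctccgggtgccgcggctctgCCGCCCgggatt
Sema3g (chr14:31217623-31217872, plus strand): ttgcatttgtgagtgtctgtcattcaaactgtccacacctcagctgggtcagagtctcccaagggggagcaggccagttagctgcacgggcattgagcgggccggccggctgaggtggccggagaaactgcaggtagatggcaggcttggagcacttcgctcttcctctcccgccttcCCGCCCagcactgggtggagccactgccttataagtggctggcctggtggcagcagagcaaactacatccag
Efnb2 (chr8:8661243-8661492, minus strand): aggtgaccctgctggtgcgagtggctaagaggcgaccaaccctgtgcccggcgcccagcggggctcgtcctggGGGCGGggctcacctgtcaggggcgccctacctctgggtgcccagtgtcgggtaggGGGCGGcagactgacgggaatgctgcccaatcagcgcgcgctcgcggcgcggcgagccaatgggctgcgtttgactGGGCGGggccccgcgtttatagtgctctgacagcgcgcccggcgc
The Sema3c and Efnb2 windows held 3 GC boxes each and the Sema3g window 1. Among the 5 named genes that were lower in endothelial-like cells, 4 had a GC box (Sema3c, Sema3g, Efnb2 and Epha4), against 32.7% of 32851 mouse promoter windows of the same length. The motif TGGGAA, bound by the Notch partner RBPJ, was in 2 of the 5 against 21.6% of windows, and the AP-1 motif TGANTCA in 0 of 5 against 6.75%, each on either strand, and none of the 3 motifs contains another. Plxnb2, which was higher in endothelial-like cells, had 4 and 3 GC boxes in its windows, so the box was not limited to the lower genes. Of the 51 genes, 45 had a RefSeq promoter window. These matches describe letters only.

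Microglia-like cells, named for the phagocytes that reside in nervous tissue, were the highest class for Plxnb2 in both libraries, with 168.5 CPM [164.4 to 172.7] at 3 dpi and 184.7 CPM [176.0 to 193.8] in sham. Sema4d, whose receptor Plxnb2 can be, stood in the same cells at 45.8 CPM [43.6 to 48.0] at 3 dpi against 138.9 CPM [131.4 to 146.8] in sham, 3.04-fold lower [2.82 to 3.27]. The difference held in each cluster with at least 500 cells: Sema4d had 50.7 and 38.8 CPM in the 3 dpi clusters and 127.4 and 148.8 CPM in the sham clusters. Sema4g, a membrane-bound semaphorin, had 1.42 CPM [1.06 to 1.85] at 3 dpi against 31.8 CPM [28.2 to 35.6] in sham, 22.4-fold lower [16.7 to 30.7]. Plxna4, a receptor for class 3 and class 6 semaphorins, had 5.50 CPM [4.78 to 6.31] at 3 dpi against 42.5 CPM [38.3 to 46.9] in sham, 7.72-fold lower [6.50 to 9.19]. Among classes of at least 50 cells, Sema4g and Plxna4 had their highest sham level in microglia-like cells, and both were under 20 CPM in every named class of at least 50 cells at 3 dpi.

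In microglia-like cells, 6 of 8 measured members (75.0%) lay at least 2-fold below sham at 3 dpi and 0 above it, where 16.4% of all 6207 measured genes were lower, 11.7% higher and 28.1% apart. Efnb1 (2.83 CPM at 3 dpi and 22.6 CPM in sham) and the receptor Epha2 (5.21 and 28.3 CPM) were the other named genes. Efnb3 (1.496 and 20.02 CPM) stood at 2.6% of its sham level in oligodendrocyte-like cells, where Mag stood at 3.48%, and is not read as expressed. The count of 6 includes Efnb3. All of the 6 but Sema4d were measured through sham only, so the filter favoured a lower call for them. The same holds for background genes measured through 1 library. Of the 51 genes, 2 reached 20 CPM in microglia-like cells at 3 dpi, against 8 in sham (3.92% and 15.7%, beside 21.9% and 24.8% of all genes), and the median log2 ratio of the 8 was -1.36, beside -0.15 over all measured genes. The myelin gene Mag had 29.8 CPM in these cells at 3 dpi and 136.1 CPM in sham, and whether as free RNA or from remaining doublets was not tested. The 12 oligodendrocyte markers together had 258.3 and 2125 CPM there, and 5 members rather than 6 were lower once 5% of UMIs had been taken off as free RNA. The 12 monocyte/macrophage markers summed to 4738 CPM in microglia-like cells at 3 dpi, 15.3% of their level in monocyte/macrophage-like cells, and to 397.9 CPM in sham, with 0 and 4 of them at 0. In monocyte/macrophage-like cells Sema4d had 43.4 CPM and Plxna4 was not measured, and the part of such cells in the microglia values was not tested.

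**Figure D3:**
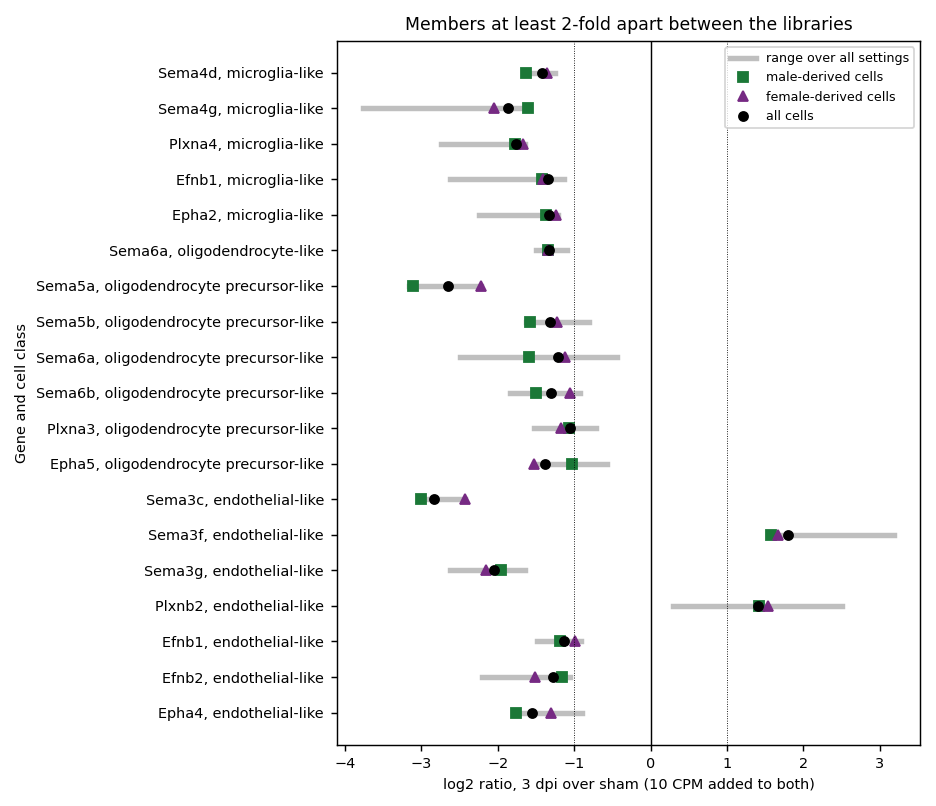
Log2 ratio of 3 dpi over sham (10 CPM added to both) for the 19 pairs of gene and class named as at least 2-fold apart. Black circles are all cells, green squares male-derived and purple triangles female-derived cells, grey bars span all settings tried and dotted lines mark 2-fold. Sema3f and Plxnb2 in endothelial-like cells lie right of 0 and the other 17 pairs left of 0 in every setting.

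Male- and female-derived cells were assigned by any sex-linked UMI, so RNA from other cells can misplace some. In sham, 493 of 4283 oligodendrocyte-like and 116 of 2179 microglia-like cells held UMIs of both kinds and were left out. The 2 groups give values mainly from separate animals of each pool, without being replicates. All 19 pairs kept their sign in both. Sema3c in endothelial-like cells had 42.9 CPM in male-derived cells at 3 dpi against 413.1 CPM in sham, and 70.7 against 424.9 CPM in female-derived cells. Sema5a in precursor-like cells had 12.2 against 181.2 CPM in male-derived and 23.1 against 144.9 CPM in female-derived cells. Sema3f in endothelial-like cells had 35.9 against 5.38 CPM in male-derived and 29.0 against 2.27 CPM in female-derived cells, with 9 and 5 UMIs behind the sham values.

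Fibroblast-like cells, which lay down matrix in the lesion, were described at 3 dpi only. They were the highest class for Plxna2 (100.4 CPM [94.9 to 106.1]), Efnb1 (48.5 CPM [44.7 to 52.5]), Efnb2 (30.8 CPM [27.8 to 34.1]), Epha3 (24.6 CPM [21.9 to 27.5]) and Efna5 (23.7 CPM [21.1 to 26.6]). For Epha3 the order was not settled, since the second class, T or NK cell-like cells, rested on 1 UMI. At 3 dpi the ephrins Efnb1 and Efnb2 had intervals above those of endothelial-like cells (16.7 CPM [13.8 to 20.1] and 13.5 CPM [10.9 to 16.6]). The class was made of 2 clusters that differed in these genes, a pattern picked after its values had been seen. In the cluster of 437 cells Epha3 stood at 30.9 CPM, Efna5 at 30.3 CPM and Plxna4 at 24.9 CPM, while in the cluster of 226 cells these genes had 7.76, 5.97 and 4.48 CPM. Efnb2 was at 19.6 CPM in the larger cluster and 61.2 CPM in the smaller one, and Epha7, an EphA receptor, at 9.18 and 31.6 CPM. Pericyte or smooth muscle was the second class by markers of both clusters, with 5 of those markers at least 2-fold above the median cluster in the larger and 10 in the smaller. Plxna2 (95.2 and 114.3 CPM) and Plxnb2 (88.0 and 78.5 CPM) stood closer together.

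Leukocyte classes were described at 3 dpi, and class 4 semaphorins and plexins were the members they carried at 20 CPM or more, with Sema6b. Neutrophil-like cells, early invading granulocytes, had 139.7 CPM [122.4 to 158.8] of Sema4d and 127.8 CPM [111.3 to 146.1] of Sema4a, a semaphorin known from immune cells. They were also highest for Sema6b (41.6 CPM, on 70 UMIs), and had 33.9 CPM of Plxnc1, the receptor of semaphorin 7A, within counting error of monocyte/macrophage-like cells. Monocyte/macrophage-like cells had 92.96 CPM [89.4 to 96.6] of Plxnb2, 33.9 CPM of Plxnd1, 31.1 CPM of Plxnc1 and 25.3 CPM of Plxna1. Summed over the genes of a family, ephrin A genes had 0.723 CPM, ephrin B genes 3.83 CPM, EphA genes 1.45 CPM and EphB genes 1.95 CPM in monocyte/macrophage-like cells, and plexins 187.3 CPM. Sema4d was at 76.7 CPM in the monocyte cluster that also had Chil3 and Plac8 among its leading genes and at 33.6 CPM in the larger macrophage cluster led by Lyz2, Pf4 and Arg1. B cell-like cells had 66.4 CPM [28.7 to 130.8] of Sema4b on 8 UMIs, and T or NK cell-like cells 54.0 CPM of Sema4d on 8 UMIs, too few to order these classes.

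For pericyte- or smooth muscle-like cells, the contractile cells on the outside of vessels, only the sham library had enough cells. They were the highest sham class for Sema6d (259.2 CPM [230.7 to 290.3]), Plxnb1 (97.97 CPM), Epha2 (42.5 CPM), Sema6c (27.7 CPM) and, within counting error of precursor-like cells, Plxna1 (21.7 CPM). Sema5a (118.8 CPM [99.7 to 140.4]) and Plxnb2 (120.5 CPM [101.3 to 142.3]) were high there too. Efnb3 had 89.3 CPM, 11.6% of its level in oligodendrocyte-like cells, where Mag stood at 9.54%, and Efnb3 is not read as expressed there. A cluster led by Tm4sf1 and Nnat that shared markers of ependymal cells and astrocytes, with 201 cells at 3 dpi and 40 in sham, had 122.6 CPM of Plxnb2, 71.5 CPM of Epha5 and 51.7 CPM of Sema6d at 3 dpi.

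Cues and receptors were paired from textbook knowledge as 33 couples of ligand and receptor, including the neuropilins. Both partners were measured for 21 couples at 3 dpi and 19 in sham. The highest class of ligand and receptor was the same for 2 of 21 couples at 3 dpi, Efna1 with Epha2 in endothelial-like cells and Efna5 with Epha3 in fibroblast-like cells. The highest class of Epha3 was not settled for counting error. In sham the highest class of ligand and receptor was the same for 9 of 19. These 9 included Sema3c with Nrp1, Sema3c and Sema3g with Nrp2, Sema6a with Plxna2 and Efnb2 with Ephb4, all in endothelial-like cells, and Sema4g with Plxnb2 in microglia-like cells. The libraries were not compared on these counts, since different classes could be the highest in each and some highest classes were not settled. Nrp1 was highest in fibroblast-like cells at 3 dpi (166.3 CPM) and in endothelial-like cells in sham (365.3 CPM), and Nrp2 was highest in microglia-like cells at 3 dpi (121.8 CPM) and in endothelial-like cells in sham (51.0 CPM).

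Other couples had their partners in different classes. Sema4d was highest in oligodendrocyte-like cells and its receptor Plxnb2 in microglia-like cells in both. Efnb3 was highest in oligodendrocyte-like cells and its receptor Epha4 in endothelial-like cells in both. Sema4c, a membrane-bound semaphorin that binds Plxnb2, had 28.9 CPM at 3 dpi and 44.8 CPM in sham in endothelial-like cells, within counting error of oligodendrocyte-like cells at 3 dpi (28.0 CPM) and of pericyte-like cells in sham (40.75 CPM). Sema7a was highest in endothelial-like cells (185.3 CPM [175.2 to 195.9] at 3 dpi and 329.0 CPM [314.4 to 344.2] in sham), while Plxnc1, among named classes of at least 50 cells, was measured at 3 dpi only, in neutrophil-like, monocyte/macrophage-like and, on 3 UMIs, T or NK cell-like cells.

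Genes that work beside these families were counted by the same 2-fold rule, beside which 28.1% of all measured genes were apart in microglia-like, 8.3% in oligodendrocyte-like, 21.0% in precursor-like and 21.7% in endothelial-like cells. These lists hold few measured genes, and several of the counts lie near or below those shares. Of 11 neuropilins and co-receptors, 2 of 4 measured genes were higher in microglia-like cells, Nrp2 (121.8 CPM at 3 dpi and 40.4 CPM in sham) and Cd72 (232.4 and 13.8 CPM), a receptor that semaphorin 4D can bind. In endothelial-like cells 3 of 5 were lower, Nrp1, the vascular receptor Kdr (279.2 and 748.6 CPM) and the integrin subunit Itga1 (160.3 and 415.4 CPM). In precursor-like cells 2 of 5 were higher, the integrin subunits Itgb1 and Itga1, and L1cam (18.5 and 55.3 CPM) was lower, and in oligodendrocyte-like cells Nrcam (30.4 and 1.02 CPM) was the only 1 of 2 that was higher. Of 24 transducers of semaphorin and plexin signals, 1 was higher and 1 lower of 11 measured in microglia-like cells, 3 and 0 of 12 in oligodendrocyte-like, 1 and 1 of 16 in precursor-like and 3 and 1 of 15 in endothelial-like cells. Outside microglia-like cells, the higher genes included the microglial genes Tyrobp in all 3 classes and Trem2 in oligodendrocyte-like cells. Tyrobp had 71.0, 84.6 and 93.5 CPM in oligodendrocyte-, precursor- and endothelial-like cells at 3 dpi (12.35, 7.597 and 11.97 CPM in sham), beside 2754 CPM in microglia-like cells at 3 dpi (3002 CPM in sham), and is not read as expressed in these 3 classes. Of 20 transducers of Eph and ephrin signals, 0 were higher in any of these classes, and 3 of 10, 0 of 8, 2 of 14 and 1 of 10 were lower. Among netrin, slit and other guidance families, 20 of 21 genes were present in the tables, and precursor-like cells had 5 of 6 measured genes lower: Dscam (59.2 and 243.8 CPM), Neo1 (37.5 and 102.2 CPM), Unc5c (48.5 and 112.6 CPM), Robo1 (12.5 and 45.6 CPM) and Rgma (26.0 and 66.3 CPM). In oligodendrocyte-like cells 1 of 5 measured genes of this list was lower, the netrin receptor gene Unc5b (81.3 and 245.3 CPM). In endothelial-like cells 2 of 4 were lower, Unc5b (28.1 and 101.0 CPM) and Neo1 (3.85 and 34.2 CPM). In microglia-like cells the 1 measured gene, Rgmb (11.7 and 45.5 CPM), was lower.

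Over the 14 pairs of class and library with at least 50 cells, the nearest genes of 11468 searched were found for the highest member of each family by Spearman correlation. Efna1 was nearest to another member, Epha4 (rho 0.978), and then to Sema6a (rho 0.969). Ephb1 was nearest to Hdac5 (rho 0.965) and then to Efnb3 (rho 0.947). Epha5 was nearest to Negr1 (rho 0.979), a gene of neural cell adhesion, Efnb3 to Mon2 (rho 0.965), Sema4d to Retreg1 (rho 0.956) and Plxnd1 to Baiap2 (rho 0.912). The points share 2 libraries and their depth, so these values describe likeness of pattern only.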

How the data were processed

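Whole-number UMI counts per gene and cell were deposited by the authors as 1 table per library; the submitters' processing notes name Cell Ranger, Seurat and GRCh38, a human build, while the gene symbols are mouse. Further upstream settings are not given in the sources used here, and the tables held 0 mitochondrial rows. Cells with at least 200 genes and 500 UMIs were kept (13584 at 3 dpi and 10126 in sham), and simulated-doublet scores removed 0.8% per 1000 cells, 1476 at 3 dpi and 820 in sham. Counts scaled to 10000 per cell were log-transformed, 2000 variable genes per library without the members and listed genes gave 30 components, and Leiden clustering of 15 neighbours at resolution 1.0 gave 31 clusters (Python 3.11.15, scikit-learn 1.9.0, leidenalg 0.10.2). Clusters were named from marker lists, and 7 stayed unnamed. The rule that a second class within 1 log2 unit blocks a name, and its exemption for the 2 macrophage classes, were chosen after seeing the clusters. Members and lists were chosen with earlier results of these data known.

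UMIs were pooled per class. A difference was called at 2-fold with 10 CPM added to both libraries, for genes at 20 CPM or more in 1 library, in classes with 50 cells in both. Intervals are exact (Poisson, conditional for ratios), at 95%, and cover counting error only. Members named in full were those called with at least 20 UMIs in 1 library and 10% of the level of their highest class there. The 2-fold rule was tried on simulated class sums with planted changes larger than the limit and counting error only. The simulation left out differences in clusters and stray RNA, so it does not show how the rule behaves on these data. With 1 library per group no test was possible. In all, 13 alternatives were run, and 3 more were added after seeing the data. Promoter sequences are from RefSeq (GRCm38.p6).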

Additional observations from a re-analysis of the deposited data

How the results depend on the processing

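No paired analysis was possible because each group was 1 library. Over 13 other settings and 3 added after seeing the data, the 19 named log2 ratios gave 261 values. Of these, 0 changed sign and 243 stayed at least 2-fold. Counting genes as measured at 50 CPM, or with any UMI, changes which genes are counted and leaves each ratio as it was. Adding 1 CPM, a smaller amount than in the main setting, can only widen a ratio. The 19 values from each of these settings could therefore not fail, and they do not bear on how stable the ratios are. With genes measured at 50 CPM, members at least 2-fold apart numbered 1 rather than 6 in microglia-like, 4 rather than 7 in precursor-like and 3 rather than 8 in endothelial-like cells. In that setting 35 rather than 64 pairs of gene and library kept their highest class, since fewer genes counted as measured. With 1 CPM added, the counts were 4 rather than 1 in oligodendrocyte-like and 11 rather than 7 in precursor-like cells. In oligodendrocyte-like cells the count was 2 under median-of-ratios scaling, resolution 0.5, 5% free RNA subtracted, thinning to 1000 UMIs, in male-derived cells and with the Syt4 and Gpd1 cluster counted; the cause was not tested. The values that came within 2-fold were all in precursor-like and endothelial-like cells. In precursor-like cells they came with thinning (4 genes, Sema5b at -0.83 among them), doublets kept (Sema5b -0.95, Sema6b -0.98, Plxna3 -0.80, Epha5 -0.72), the Gpr17 cluster counted (4 genes, Sema6b at -0.94 and Plxna3 at -0.73 among them) and median-of-ratios scaling (Sema6a -0.95, Plxna3 -0.84). In endothelial-like cells, Efnb1 was also at -0.99 in female-derived cells.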
